A study of Mus musculus with 48 samples.

Results

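Genes of voltage-gated and potassium ion channels were read across 4 mouse tissues. A gene counted as a channel gene when its symbol started with Kcn, with Scn and a digit, or with Cacn. This gave 60 of the 8251 genes that the array reads through a probe set with 1 gene symbol. A probe set is a group of short probes for a transcript, and 72 probe sets carried a channel symbol. The 12 genes with more than 1 probe set were represented by their brightest set, judged by the mean of the 48 arrays. RNA came from heart, liver, spleen and lung of A/J and C57BL/6J mice, both inbred strains, at time 2 and at time 1, which gives 16 groups of 3 arrays. The mice were males aged 3 months, and the labels call them littermates and give 3 biological replicates a group. The sources used here name no treatment and do not say what the times are or whether a mouse gave more than 1 tissue. The tests thus weigh each difference against the spread among these samples, part of which may be technical.

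Voltage-gated channels are membrane pores that open or close with the voltage across the cell membrane, and each is built from a pore subunit with auxiliary subunits that set its delivery to the membrane and its gating. In heart muscle an inward sodium current starts the action potential, calcium entry through L-type channels carries the plateau and triggers contraction, and several potassium currents end it. Inward rectifier (Kir) and K2P potassium channels hold the resting potential. Lymphocytes use a smaller set of potassium channels, which sustain calcium entry during activation.

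Values are log2 intensities as deposited, so a difference of 1 is a doubling of signal. Each probe set has a background of its own, so levels are compared between tissues for 1 probe set and not between genes, and a difference from a tissue at background is a lower bound. As a rough guide to background, 36 genes best known from retina, lens, testis, pituitary, brain, skin and other organs were read in the same way. Their highest tissue means ran from 5.50 to 10.51 with a median of 8.58, and the channel genes whose highest tissue mean was at or under their 75th percentile (9.64) are called near background below. Some of the 36 genes were not flat. Heart minus the highest other tissue was -1.14 for Mbp, -0.85 for Gad1 and -0.64 for Prm1. Time 2 minus time 1 was 1.11 for Prm1 in spleen and 0.87 for Tnp1 in liver. The guide may thus lie above background. It also sets a single level against many probe sets, so near background is only a rough name. In whole tissue, fewer cells of a type and less RNA per cell cannot be told apart.

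The tissue labels were read against cell type markers, each list given as its mean log2 level. The cardiomyocyte list (14 of 15 measured) lay between 12.96 and 13.42 in hearts, against 7.70 to 8.13 in livers and spleens and 8.76 to 10.16 in lungs. Lung epithelium markers (5 of 9 measured) lay between 13 and 13.19 in lungs, but reached 11.05 in hearts, where the other tissues ended at 9.66. In 5 spleens the exocrine pancreas list (7 of 13 measured) lay at 12.53 to 13.6, against 9.745 to 10.53 in the other spleens, and 1 C57BL/6J liver at time 2 had 13.25. The hepatocyte list (10 of 12 measured) lay at 12.56 to 13.16 in livers. In lungs it lay at 8.43 to 9.75 at time 1, against 8 to 8.44 at time 2. In A/J spleens it lay at 8.97 to 9.68 at time 2, against 8.26 to 8.295 at time 1. C57BL/6J spleens had 8.18 to 8.705 at time 2 and 8.11 to 8.22 at time 1. The part of such cells in the channel values was not tested. In 2 A/J hearts at time 1 the Gapdh control probes at the 3′ end exceeded those at the 5′ end by 1.34 and 1.41 log2 units, against 0.083 to 0.30 in the other hearts. This excess was 1.051 to 1.962 in lungs at time 2 and 0.64 to 1.075 in lungs at time 1. It was 0.48 to 1.308 in spleens and 0.158 to 0.39 in livers. Only the 2 hearts were left out for it in an alternative. Its part in the tissue and time differences was not tested. Array runs were inferred from the prefixes of the array names in the labels. By this reading all arrays of time 2 share 1 run. Heart at time 1 and spleen at time 1 have a run each, and liver and lung at time 1 share another. Time and run so inferred cannot be told apart, while both strains share each inferred run.

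Most channel genes were flat. Of the 60 genes, 5 were enriched in heart, meaning at least 1 log2 unit above each other tissue, with each of the 3 contrasts called at an adjusted p below 0.05. These are Cacna1c, Cacna2d1, Kcnk3, Kcna5 and Kcnd2, or 8.33% of the channel genes, against 2.65% of all probe sets and 3.25% of genes read by their brightest probe set. Counting any size of difference, 21 genes (35%) were higher in heart than in each other tissue in all 3 contrasts, against 16.4% of all probe sets. By the same limma rule 1 gene was enriched in spleen and 2 in lung, against 3.41% and 2.13% of all probe sets, and 9.35% of all probe sets were enriched in one of the 3 other tissues. No channel gene was enriched in liver, where 3.81% of all probe sets were, and the largest liver excess of a channel gene was 0.19 (Cacna1h). In 50 genes (83.3%) no pair of tissues was called at 1 log2 unit, against 72.3% of all probe sets. Of the 5 enriched genes, only Cacna1c and Kcnk3 had heart means above the background guide of 9.64, and Cacna2d1, Kcna5 and Kcnd2 lay below it in heart as well. In 8 genes all 12 hearts lay above all 36 other arrays (13.3%, against 4.56% of all probe sets).

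**Figure D1:**
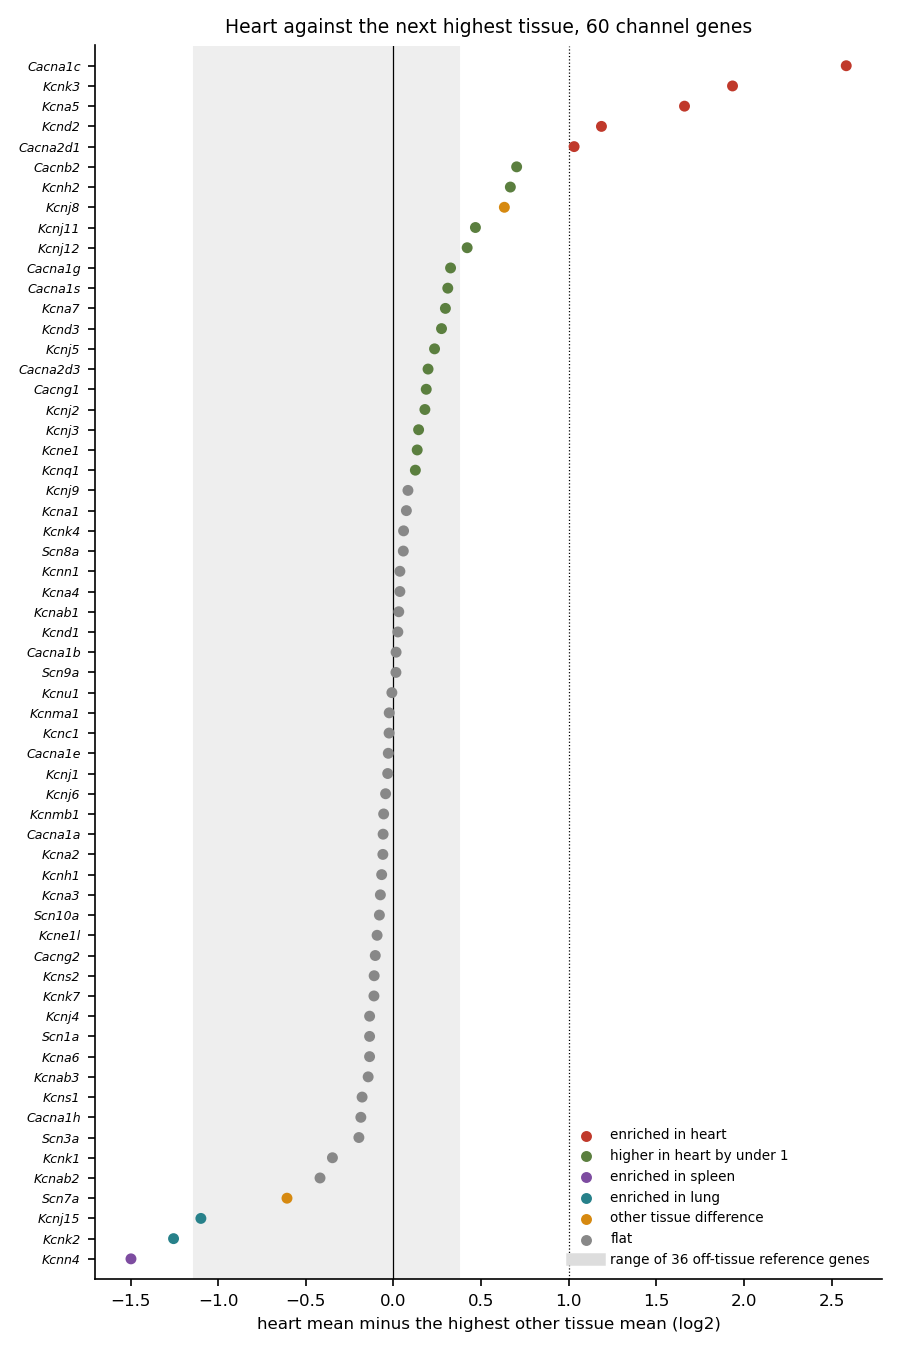
Heart mean minus the highest mean among liver, spleen and lung (log2) for each of the 60 channel genes, coloured by class, with the range of the 36 off-tissue genes in grey and a dotted line at 1. From Cacna1c (2.58) to Cacna2d1 (1.03) 5 genes lie to the right of the line, and Kcnn4, Kcnk2 and Kcnj15 lie farthest to the left.

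Cacna1c encodes the pore of the L-type calcium channel of heart and smooth muscle. Its lowest, median and highest values were 11.11, 11.65 and 12.15 in the 12 hearts, against 8.9, 9.08 and 9.29 in the 12 lungs. Livers had 8.51, 8.60 and 8.81, and spleens had 8.59, 8.73 and 8.95. Every heart was thus at least 1.815 above every other array. The heart mean exceeded the lung mean by 2.58 (SE 0.046, 5.99-fold, adjusted p = 6.5e-36), the liver mean by 3.03 and the spleen mean by 2.91. Cacna2d1 encodes the alpha2delta subunit that carries calcium channels to the membrane. It read 8.45, 9.04 and 9.25 (lowest, median, highest) in hearts, against 7.69, 7.89 and 8.29 in livers, 7.69, 7.88 and 8.14 in lungs and 7.455, 7.66 and 7.83 in spleens. The groups did not overlap, but the margin was narrow: the lowest heart lay 0.16 above the highest other array. Its excess over liver was 1.03 (SE 0.052, 2.04-fold, adjusted p = 1.25e-20), just past the limit of 1, and without 1 of the A/J hearts of time 1 (replicate 2) it was 0.9852. The next gene below the limit was the beta subunit gene Cacnb2 at 0.70.

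Kcnk3 encodes TASK-1, a K2P background potassium channel that acid closes. Hearts gave 10.21, 10.84 and 11.13, against 8.47, 8.89 and 9.095 in lungs, 7.75, 8.18 and 8.77 in livers and 7.615, 7.88 and 8.21 in spleens. No heart came within 1.12 of any other array, and lung stood above liver and spleen on average. The heart mean exceeded the lung mean by 1.935 (SE 0.068, 3.82-fold, adjusted p = 6.35e-26), and the lung mean exceeded the spleen mean by 0.92 (the fit gives spleen minus lung as -0.92, adjusted p = 2.89e-15). The cardiomyocyte list was also higher in lungs than in spleens, as given above, and its part in the Kcnk3 level of lung was not tested.

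Kcna5 encodes Kv1.5, a delayed rectifier that helps to end the mouse action potential. Its probe set read 8.33, 8.745 and 8.93 in hearts, against 6.68, 7.05 and 7.34 in livers, 6.605, 6.77 and 7.09 in lungs and 6.32, 6.63 and 6.71 in spleens. The heart mean was 1.66 above liver (SE 0.045, 3.16-fold, adjusted p = 5.94e-30). A second, dimmer probe set of Kcna5, whose name has a suffix for probes shared with other transcripts, gave no such excess. Its mean was 5.97 in hearts, against 6.16 in livers, 5.91 in spleens and 5.80 in lungs. Names of sets read as the brightest are marked too, by the same suffix in Kcnab2 and by others in Cacna1c, Kcnd2, Kcnj15 and Cacna1e. The second sets of Kcnab2, Kcnd2, Kcnj15 and Cacna1e have plain names. Kcnd2 encodes Kv4.2, a pore of the fast transient outward current of rodent ventricle. It read 5.57, 6.23 and 6.72 in hearts, against 4.80, 5.01 and 5.24 in lungs, 4.76, 5.02 and 5.14 in livers and 4.90, 4.94 and 5.08 in spleens. The 3 other tissues lay together near 5, and the excess over lung was 1.19 (SE 0.047, 2.28-fold, adjusted p = 3.87e-24). A second probe set of Kcnd2 was also higher in heart, by 0.51 over liver (SE 0.045, adjusted p = 4.16e-13). With the mean over both probe sets of each gene the excess was 0.74 for Kcna5 and 0.86 for Kcnd2, so both then fell under the limit of 1.

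**Figure D2:**
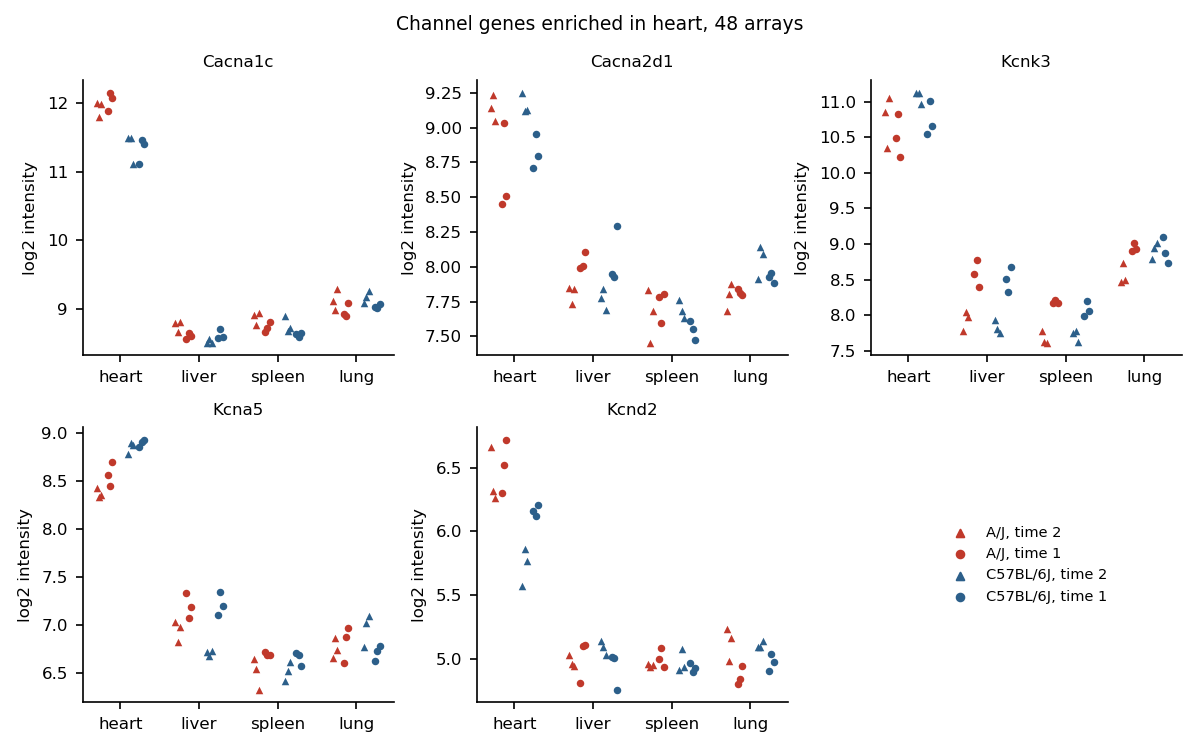
Log2 intensity of the 5 channel genes enriched in heart, 1 point per array, by tissue, with A/J in red, C57BL/6J in blue, triangles for time 2 and circles for time 1. In each panel the 12 hearts lie above all other arrays, and the strains separate within heart for Cacna1c, Kcna5 and Kcnd2.

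By the name prefixes, heart at time 1 had a run of its own. The tissues were therefore also compared at time 2 alone, where all arrays share the inferred run. There 4 of the 60 genes were enriched in heart, against 2.51% of all probe sets. Cacna1c was 2.49 above the next tissue, Kcnk3 2.17, Kcna5 1.76 and Cacna2d1 1.24, while Kcnd2 stood at 0.95. Relative to the off-tissue genes, whose median was 0.21 higher in hearts than in lungs, the excess was smaller. With each array centred on those genes, a setting chosen after seeing the data, Cacna1c, Kcnk3 and Kcna5 were still past 1 (2.28, 1.635 and 1.57) and Kcnd2 and Cacna2d1 were not (0.89 and 0.75). In the same setting 13 genes were higher in heart in all 3 contrasts, against 8.45% of all probe sets.

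The start regions of 4 of these genes are printed so that the genes can be placed on the genome and compared in base content. They are RefSeq windows on mouse build GRCm38.p6, from 250 bases before to 50 bases after the annotated start, in the direction of the gene. Capitals mark CANNTG (the E-box read by basic helix-loop-helix factors) and GATAA (the core read by GATA factors), searched on both strands.
Cacna1c, chr6:119196360-119196659, minus strand: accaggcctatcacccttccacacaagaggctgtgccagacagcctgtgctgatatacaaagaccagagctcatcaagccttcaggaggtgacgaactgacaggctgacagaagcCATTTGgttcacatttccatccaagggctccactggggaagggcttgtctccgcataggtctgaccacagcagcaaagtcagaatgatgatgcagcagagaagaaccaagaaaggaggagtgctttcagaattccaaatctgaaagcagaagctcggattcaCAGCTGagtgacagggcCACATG
Kcna5, chr6:126535506-126535805, minus strand: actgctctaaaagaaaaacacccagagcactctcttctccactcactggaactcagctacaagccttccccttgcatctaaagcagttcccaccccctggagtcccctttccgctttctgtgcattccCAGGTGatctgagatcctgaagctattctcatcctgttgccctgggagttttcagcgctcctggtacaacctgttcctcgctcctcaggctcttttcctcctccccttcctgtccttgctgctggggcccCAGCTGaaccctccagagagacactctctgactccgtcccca
Kcnd2, chr6:21215096-21215395, plus strand: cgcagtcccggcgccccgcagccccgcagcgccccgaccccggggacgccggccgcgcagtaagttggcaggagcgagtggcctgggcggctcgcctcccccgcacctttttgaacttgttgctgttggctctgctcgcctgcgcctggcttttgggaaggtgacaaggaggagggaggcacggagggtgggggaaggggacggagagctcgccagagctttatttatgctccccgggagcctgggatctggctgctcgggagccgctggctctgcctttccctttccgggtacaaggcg
Cacna2d1, chr5:15934441-15934740, plus strand: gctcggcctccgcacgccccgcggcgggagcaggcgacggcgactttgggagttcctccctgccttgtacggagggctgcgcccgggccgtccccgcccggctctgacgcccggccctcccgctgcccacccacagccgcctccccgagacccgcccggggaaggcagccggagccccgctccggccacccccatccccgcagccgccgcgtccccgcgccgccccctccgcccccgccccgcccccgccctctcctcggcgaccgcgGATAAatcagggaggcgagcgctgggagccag
The Cacna1c window, the most upstream of 3 annotated for the gene, held 3 CANNTG and that of Kcna5 held 2, while those of Kcnd2 and Cacna2d1 held none. GATAA stood once, in Cacna2d1. Over all 32851 windows, 72.3% held CANNTG and 25.4% held GATAA, and a match here is only a run of letters. The windows differed in base content. G and C made up 80% of the Cacna2d1 window, with 42 CpG pairs, and 68.7% of that of Kcnd2, with 26, against 55% for Kcna5 and 51.3% for Cacna1c, with 4 and 3 CpG pairs. The median of all windows was 52.7%, and the 90th percentile was 69.7%.

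A further 16 genes were higher in heart in all 3 contrasts by less than 1 log2 unit, and 10 of them were near background. Cacnb2, the beta subunit of the cardiac L-type channel, read 10.05, 10.24 and 10.52 in hearts, against 9.22, 9.61 and 9.92 in livers, and was 0.70 above liver (SE 0.042, adjusted p = 3.15e-18). Kcnh2, the ERG pore of the rapid delayed rectifier, read 9.98, 10.41 and 10.71 in hearts, against 9.58, 9.75 and 9.86 in lungs, and was 0.67 above lung (SE 0.048, adjusted p = 8.1e-16). In both genes all hearts lay above all other arrays, by 0.14 for Cacnb2 and by only 0.024 for Kcnh2. Kcnd3 (Kv4.3, the partner of Kv4.2 in the transient outward current) was 0.27 above liver, and Kcnq1, the pore of the slow delayed rectifier, was 0.125 above spleen (adjusted p = 0.0281). A second probe set of Kcnq1 gave heart 0.67 above liver and 0.24 above lung. Kcne1, the auxiliary subunit of that slow current, was 0.14 above liver over all arrays but 0.094 at time 2 alone, which was not called (adjusted p = 0.203).

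Among the inward rectifiers, Kcnj8 (Kir6.1) and Kcnj11 (Kir6.2) form the pores of ATP-sensitive channels, which link the membrane to the energy state of the cell. Kcnj8 read 9.62, 9.81 and 10.03 in hearts, against 8.88, 9.19 and 9.41 in spleens, 8.36, 8.49 and 8.70 in livers and 8.01, 8.32 and 8.51 in lungs. Hearts and spleens thus both stood apart from livers and lungs. Heart exceeded spleen by 0.63 (SE 0.043, adjusted p = 1.04e-16) and lung by 1.53, and spleen exceeded lung by 0.895 (adjusted p = 2.05e-21). Kcnj11 read 10.4, 11.07 and 11.43 in hearts, against 10.32, 10.48 and 10.82 in livers. Those groups overlapped, although the mean was 0.47 higher (SE 0.059, adjusted p = 4.38e-09). The other cardiac inward rectifiers differed less: Kcnj12 (Kir2.2) was 0.42 above spleen, Kcnj5 (Kir3.4, a pore of the acetylcholine-gated current of the atrium) 0.23 above liver, Kcnj2 (Kir2.1, the main resting conductance) 0.18 and Kcnj3 (Kir3.1) 0.14, and the probe sets of these 4 were near background. The remaining genes of this kind were the T-type calcium pore Cacna1g (0.33), the skeletal muscle pore Cacna1s (0.31), Kcna7 (0.30), Cacna2d3 (0.20) and Cacng1 (0.19). Among the 36 off-tissue genes, 4 were higher in heart in all 3 contrasts, by at most 0.38, so that excesses of this size also occurred in genes not known from heart.

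A list of 36 textbook cardiac channel genes, chosen with earlier results of these data known, had 24 measured members. In 17 of these 24 heart was higher than each other tissue in all 3 contrasts, against 4 of the 36 other channel genes and 16.4% of all probe sets. Chosen as it was, the list gives no independent test of that contrast. Of the 24, 6 were flat. The flat ones, read by their brightest probe set, were the T-type pore Cacna1h, the transient outward pore Kcna4 and the beta subunits Kcnab1 and Kcnab2. The inward rectifier Kcnj4 and the K2P channel Kcnk1 were flat too. The second set of Kcnab1 was called higher in heart in all 3 contrasts, by 0.098 over liver (limma adjusted p = 0.044). That of Kcnab2 was high in spleen, as given below. Kcna4 had a mean of 6.22 in heart, against 6.19 in liver, 6.09 in spleen and 6.06 in lung, and Cacna1h had 8.32 in heart, against 8.50, 8.22 and 7.998 in the same order. The 6 sodium channel pores on the list of members are mainly known from nerve (Scn1a, Scn3a, Scn8a, Scn9a, Scn10a) or from glia and sensory sites (Scn7a), and none was higher in heart. Of these 6 genes, 5 were flat, with tissue means between 5.36 and 5.49 for Scn1a and between 7.09 and 7.38 for Scn10a.

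Spleen stood out for Kcnn4, the calcium-activated potassium channel of lymphocytes, macrophages and red cells. Its values were 10.09, 10.35 and 10.91 in spleens, against 8.83, 8.88 and 9.11 in hearts, 8.65, 8.87 and 9.25 in livers and 8.51, 8.79 and 8.87 in lungs. Every spleen lay above every other array. The spleen mean was 1.498 above heart (2.83-fold, SE 0.058, adjusted p = 1.3e-24), and 1.47 without the 5 spleens with pancreas markers. In the spleens the B cell list (5 of 6 measured) lay at 12.13 to 12.92, the T cell list (5 of 6) at 8.91 to 9.45 and the macrophage list (8 of 9) at 11.4 to 12.27, each above its range in the other tissues. The erythroid list (7 of 9) lay at 12.25 to 12.51 at time 2 and 11.66 to 11.96 at time 1 in A/J spleens, against 9.336 to 10.04 at time 2 and 10.39 to 11.63 at time 1 in C57BL/6J spleens, and at most 9.599 in the other tissues. Kcnn4 read 10.68, 10.91 and 10.54 at time 2 and 10.32, 10.38 and 10.56 at time 1 in A/J spleens, against 10.26, 10.09 and 10.31 at time 2 and 10.585, 10.18 and 10.19 at time 1 in C57BL/6J spleens. The strains did not overlap at time 2, and the difference over both times was 0.30 and was not called (adjusted p = 0.0828). The part of these cells in the Kcnn4 level was not tested. Kcna3, the Kv1.3 pore of T cells, was flat and near background, with a mean of 7.62 in spleen, against 7.545 in heart, 7.53 in liver and 7.42 in lung. Kcnab2, a Kv beta subunit expressed in T cells, depended on the probe set. The brighter set read 9.40, 9.75 and 9.96 in spleens, against 9.18, 9.35 and 9.47 in lungs, 0.36 higher on average (adjusted p = 6.59e-09). The dimmer set read 8.87, 9.22 and 10.1 in spleens, against 7.03, 7.38 and 7.98 in lungs, 1.79 higher (SE 0.09, adjusted p = 1.42e-20), with no overlap.

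Lung stood out for Kcnk2 and Kcnj15. Their lung means, 8.50 and 8.81, lay under the background guide given above, so both were near background by that rule. Kcnk2 encodes TREK-1, a K2P channel opened by stretch. It read 8.255, 8.54 and 8.83 in lungs, against 7.01, 7.27 and 7.40 in hearts, 6.74, 7.06 and 7.265 in livers and 6.59, 6.92 and 7.20 in spleens. All lungs lay above all other arrays, and the lung mean was 1.255 above heart (2.39-fold, SE 0.053, adjusted p = 3.16e-23). Kcnj15 (Kir4.2), an inward rectifier of epithelia, read 8.21, 8.72 and 9.46 in lungs, against 7.55, 7.70 and 7.85 in hearts, 7.43, 7.74 and 7.94 in livers and 7.46, 7.61 and 7.89 in spleens. Its lung mean was 1.099 above heart (2.14-fold, SE 0.071, adjusted p = 4.25e-17), and 0.88 at time 2 alone. A dimmer probe set of Kcnj15 gave lung means of 9.08, against 6.47 in liver, 6.46 in heart and 6.29 in spleen, an excess of at least 2.61 (the fit gives liver minus lung as -2.61, SE 0.11, adjusted p = 3.23e-23). Scn7a (Nax, a sodium-sensing relative of the sodium channels) averaged 7.96 in lung, against 7.35 in heart, 6.96 in spleen and 6.91 in liver, and exceeded liver by 1.05 (liver minus lung -1.05, adjusted p = 8.85e-20). Kcnk1 was 0.29 above liver in lung. Scn7a and Kcnk1 were near background too. The neuron and nerve list (8 of 11 measured) lay at 6.82 to 7.04 in lungs, against 6.73 to 7.42 in the other tissues.

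**Figure D3:**
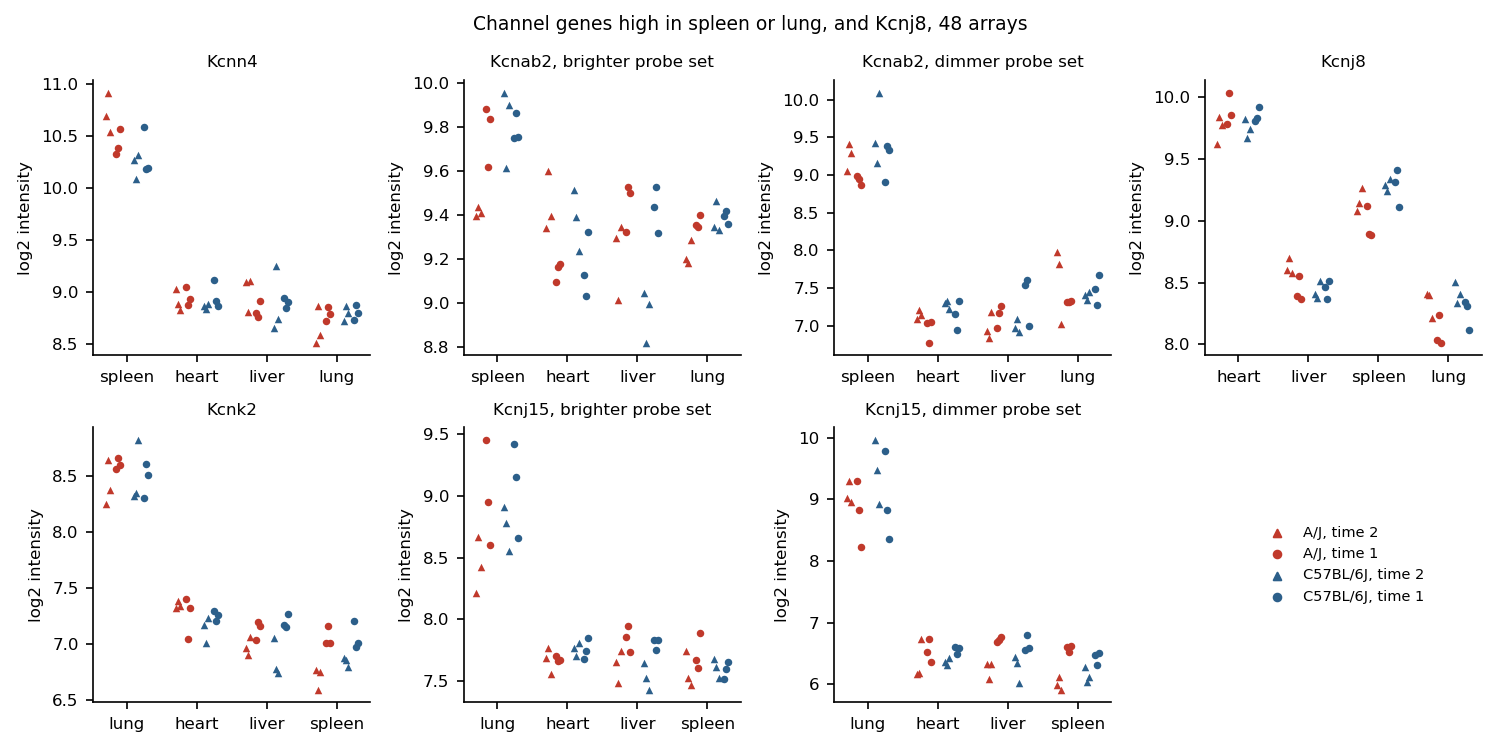
Log2 intensity per array for Kcnn4 and Kcnab2 (spleen drawn first), Kcnk2 and Kcnj15 (lung drawn first) and Kcnj8 (heart drawn first), with A/J in red, C57BL/6J in blue, triangles for time 2 and circles for time 1. The dimmer probe sets of Kcnab2 and Kcnj15 separate spleen and lung from the other tissues by more than the brighter sets of the same genes do.

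The remaining 35 genes were flat, 29 of them near background. In those 29 the highest and lowest tissue means differed by 0.053 to 0.50, with a median of 0.20. The 6 flat genes above the reference were Cacna1b, Cacng2, Kcnab2, Kcnk4, Kcnk7 and Kcnn1, of which Cacna1b, Cacng2, Kcnk4 and Kcnn1 are best known from nerve. Their tissue means spread by at most 0.44 in the brightest probe set, but the dimmer set of Kcnab2 had spleen 1.79 above lung. Flat genes included neuronal Kv pores (Kcna1, Kcna2, Kcna6, Kcnc1), silent Kv subunits (Kcns1, Kcns2) and the large-conductance calcium-activated channel of smooth muscle, pore Kcnma1 and subunit Kcnmb1. Kcnma1 averaged 8.24 in heart, against 8.23 in liver, 8.27 in spleen and 8.14 in lung, although the smooth muscle list (6 of 6 measured) was higher in lungs (10.46 to 10.81) than in livers (8.88 to 9.23).

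Genes that work with these channels were taken from a list of 35, of which 23 were measured. The list was chosen with earlier results of these data known. It holds genes known from heart, such as Nkx2-5, and Ryr2 is also in the cardiomyocyte list. It therefore gives no independent test of enrichment in heart. Of the 23, 6 were enriched in heart and 11 were higher there in all 3 contrasts, against 2.65% and 16.4% of all probe sets. Abcc9, the sulfonylurea receptor subunit that assembles with Kir6 pores, averaged 10.26 ± 0.19 in heart, against 7.03 ± 0.16 in liver, 6.70 ± 0.17 in spleen and 6.49 ± 0.20 in lung (SD, n = 12 each). Its relative Abcc8, the receptor of pancreatic beta cells, was flat, with 8.78 in heart, against 8.86 in liver, 8.77 in spleen and 8.67 in lung. The other 5 were Ryr2, the calcium release channel (5.05 above the next tissue), Slc8a1, the sodium-calcium exchanger (2.54), Nkx2-5, a cardiac transcription factor (1.64), Gja1, a gap junction protein (1.52), and Cav3, the muscle caveolin (1.37).

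Strain was compared within each tissue as A/J minus C57BL/6J, with time as an additive term. In heart 3 of the 60 channel genes differed, or 5%, against 7.48% of all probe sets, a share no larger than the background. The 3 were Cacna1c and Kcnd2, higher in A/J, and Kcna5, lower in A/J, and each is among the 5 genes enriched in heart. The other 57 genes differed by between -0.33 and 0.17 and did not pass. All 3 lie on chromosome 6, which holds 6 of the 60 genes, a feature noticed after the values were seen.

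For Cacna1c the A/J hearts read 11.995, 11.80 and 11.99 at time 2 and 11.88, 12.15 and 12.07 at time 1. The C57BL/6J hearts read 11.49, 11.495 and 11.11 at time 2 and 11.12, 11.46 and 11.41 at time 1. Every A/J heart lay above every C57BL/6J heart. The means were 11.98 ± 0.13 in A/J and 11.35 ± 0.18 in C57BL/6J (SD, n = 6 each), a difference of 0.64 (SE 0.084, 1.55-fold, adjusted p = 0.000254, limma). It passed within each time too, at 0.56 for time 2 (adjusted p = 0.0227) and 0.71 for time 1 (adjusted p = 0.013). For Kcnd2 the A/J hearts read 6.66, 6.32 and 6.26 at time 2 and 6.30, 6.52 and 6.72 at time 1, against 5.57, 5.86 and 5.77 at time 2 and 6.16, 6.12 and 6.20 at time 1 in C57BL/6J hearts. The strains did not overlap at either time, though they lay closer at time 1. The difference was 0.52 (SE 0.092, 1.43-fold, adjusted p = 0.00254), with 0.68 at time 2 (adjusted p = 0.0104) and 0.35 at time 1 (adjusted p = 0.108). The second probe set of Kcnd2 gave 0.14 and was not called (adjusted p = 0.368).

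For Kcna5 the A/J hearts read 8.43, 8.33 and 8.36 at time 2 and 8.57, 8.45 and 8.705 at time 1, against 8.79, 8.901 and 8.875 at time 2 and 8.86, 8.91 and 8.93 at time 1 in C57BL/6J hearts. Here every A/J heart lay below every C57BL/6J heart. The means were 8.47 ± 0.14 in A/J and 8.88 ± 0.05 in C57BL/6J (SD, n = 6 each), a difference of -0.40 (SE 0.053, adjusted p = 0.000241). It was -0.48 at time 2 (adjusted p = 0.00453) and -0.33 at time 1 (adjusted p = 0.0581). The second probe set gave -0.11 and was not called (adjusted p = 0.301). Without the 2 A/J hearts with high Gapdh 3′ signal the differences were 0.65 for Cacna1c, 0.57 for Kcnd2 and -0.47 for Kcna5, and all 3 passed. The 2 other genes enriched in heart did not pass: Kcnk3 stood at -0.27 (SE 0.12, adjusted p = 0.22) and Cacna2d1 at -0.09 (SE 0.088, adjusted p = 0.64).

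Marker levels also differed between the hearts of the strains. The cardiomyocyte list lay at 13.06 to 13.42 at time 2 and 13.27 to 13.31 at time 1 in A/J, against 13.01 to 13.23 at time 2 and 12.96 to 13.11 at time 1 in C57BL/6J. The smooth muscle list lay at 10.01 to 10.22 at time 2 and 10.13 to 10.31 at time 1 in A/J, against 9.715 to 9.90 at time 2 and 9.9 to 10.08 at time 1 in C57BL/6J. The lung epithelium list lay at 9.385 to 9.57 at time 2 and 9.61 to 10.1 at time 1 in A/J, against 9.34 to 10.39 at time 2 and 10.29 to 11.05 at time 1 in C57BL/6J. At time 1 both muscle lists lay wholly higher in A/J, and at time 2 the cardiomyocyte lists overlapped. The atrial list (4 of 4 measured) lay at 10.46 to 11.52 at time 2 and 11.28 to 11.4 at time 1 in A/J, against 10.23 to 11.18 at time 2 and 10.79 to 11.04 at time 1 in C57BL/6J. The macrophage list (8 of 9 measured) was lower in A/J at both times, at 9.53 to 9.66 at time 2 and 9.61 to 9.88 at time 1, against 9.83 to 9.95 at time 2 and 9.95 to 10.11 at time 1 in C57BL/6J. The erythroid list (7 of 9 measured) was lower in A/J too, at 9.055 to 9.23 at time 2 and 9.002 to 9.304 at time 1, against 9.265 to 9.599 at time 2 and 9.37 to 9.45 at time 1 in C57BL/6J. The part of these cells in the strain differences was not tested. Among the 23 partner genes 1 differed in heart, where 7.48% of all probe sets were called. It was Slc8a1, which was 0.48 higher in A/J (SE 0.075, limma adjusted p = 0.000979).

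In the other tissues 1 gene each was called. Cacnb2 in liver was 0.24 higher in A/J (SE 0.056, adjusted p = 0.0247), where 4.07% of all probe sets were called. A/J livers read 9.625, 9.49 and 9.59 at time 2 and 9.72, 9.78 and 9.92 at time 1, against 9.22, 9.35 and 9.24 at time 2 and 9.64, 9.67 and 9.57 at time 1 in C57BL/6J livers. The strains did not overlap at either time, but did across times, and leaving out any 1 of 5 livers ended the call. Kcnh1, an EAG pore of nerve, was lower in A/J by similar amounts in spleen (-0.22, SE 0.063, adjusted p = 0.033) and lung (-0.21, SE 0.055, adjusted p = 0.0417), with 12.7% and 5.22% of all probe sets called. The 6 A/J lungs read 8.405 to 8.609 and the 6 C57BL/6J lungs 8.613 to 8.825, so the strains touched but did not overlap. Kcnh1 was near background in every tissue. The spleen call was lost without the 5 spleens with pancreas markers (-0.19) and without any 1 of 9 spleens, and the lung call was lost without any 1 of 10 of the 12 lungs.

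The strain difference itself was tested for a change between tissues with an F test over all 48 arrays. It passed in 5 channel genes (8.33%), against 18.5% of all probe sets. These were Cacna1c (adjusted p = 1.29e-06), Kcnd2 (adjusted p = 5.98e-05), Kcna5 (adjusted p = 0.000651), Kcnh1 (adjusted p = 0.0258) and Kcnj8 (adjusted p = 0.0301). For Kcnj8 the A/J minus C57BL/6J difference was -0.22 in spleen (adjusted p = 0.0648) and 0.091 in liver (adjusted p = 0.505), and neither passed. Read by its brightest probe set, no channel gene passed the strain by time test of limma, in which 0.386% of all probe sets were called in heart, 4.9% in liver, 0.209% in spleen and 0.177% in lung. At an unadjusted p below 0.05 there were 2 of the 60 channel genes in heart, 8 in liver, 6 in spleen and 5 in lung. Of all probe sets 10.7%, 24%, 19.6% and 18% were under that limit, in the same order. The smallest adjusted p of a channel gene was 0.0776, for Kcnab3 in liver. The second probe set of Cacna1e did pass in liver, where A/J minus C57BL/6J was 0.29 at time 2 and -0.24 at time 1, a change of 0.53 (SE 0.116, adjusted p = 0.0229).

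**Figure D4:**
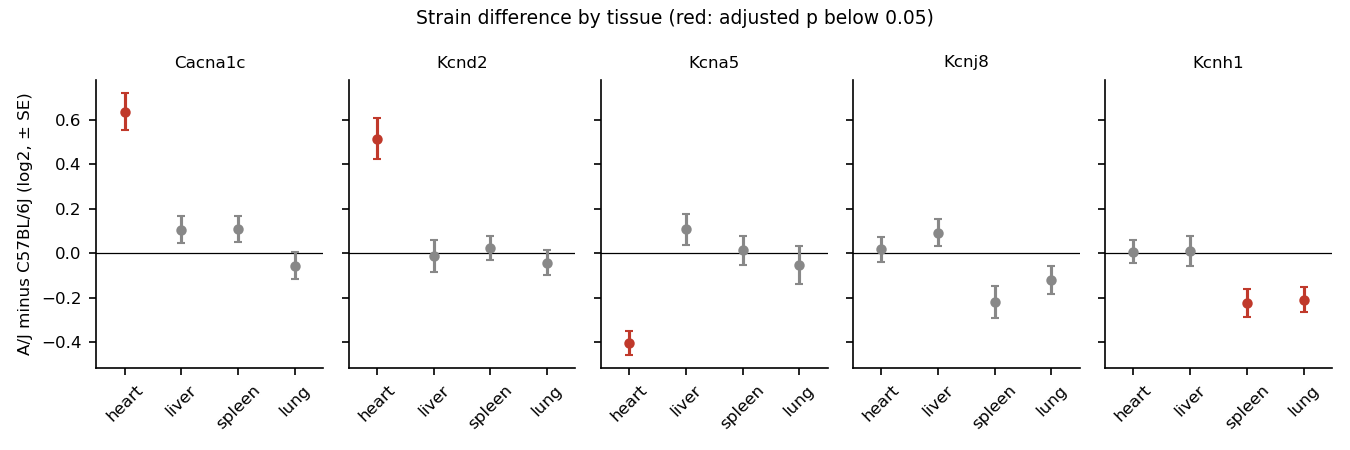
A/J minus C57BL/6J (log2, with its SE) in each tissue for the 5 channel genes whose strain difference changed between tissues, in red where the adjusted p is below 0.05. Cacna1c (0.64), Kcnd2 (0.52) and Kcna5 (-0.40) depart from 0 in heart, and Kcnh1 does so in spleen and lung.

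Time 2 was compared with time 1 within each tissue, a difference that cannot be told apart from that of the array runs. In heart 23 of the 60 channel genes differed, 16 of them higher and 7 lower at time 2, against 34.9% of all probe sets (15.7% higher, 19.3% lower). In liver 32 differed (2 higher, 30 lower), against 50.3% of all probe sets (20.2% higher, 30.1% lower). In spleen 20 differed (3 higher, 17 lower), against 31.9% (13% higher, 18.9% lower). In lung 16 differed (5 higher, 11 lower), against 34.7% (15.8% higher, 18.9% lower). All were small: the called differences ran from 0.14 to 0.66 in size. The median difference of the channel genes lay close to that of the off-tissue genes. It was -0.175 in liver, against -0.19 for the off-tissue genes, -0.11 in spleen, against -0.061, 0.065 in heart, against 0.0037, and -0.032 in lung, against -0.0046. With each array centred on those genes the calls numbered 18 in heart (9 higher, 9 lower), 5 in liver (3 higher, 2 lower), 7 in spleen (4 higher, 3 lower) and 12 in lung (8 higher, 4 lower). With quantile normalization they numbered 22 (16 higher, 6 lower), 31 (7 higher, 24 lower), 16 (5 higher, 11 lower) and 19 (8 higher, 11 lower) in the same order. The share of all probe sets called by time was not computed in either setting. These counts thus cannot show whether the channel genes changed more than the whole array did.

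**Figure D5:**
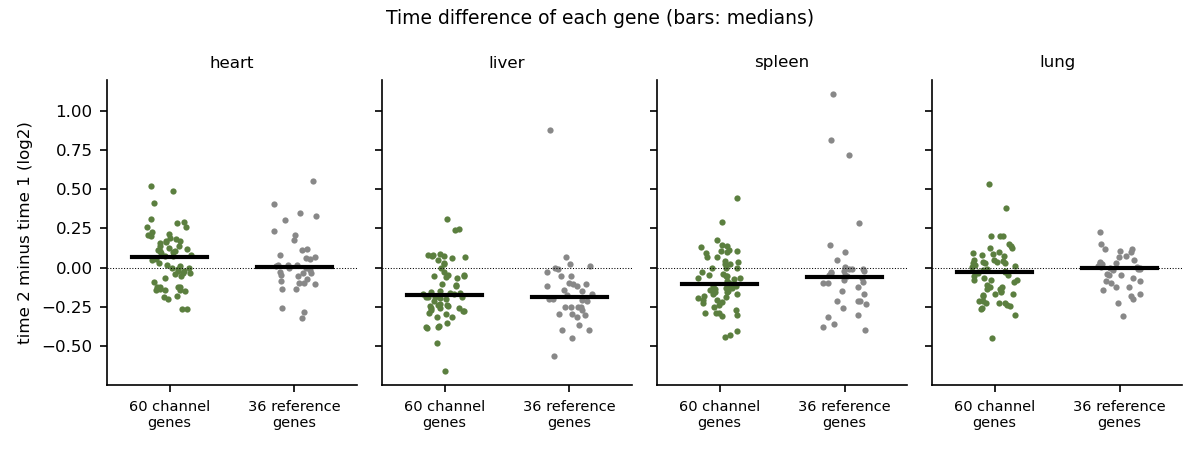
Time 2 minus time 1 (log2) for the 60 channel genes and the 36 off-tissue genes in each tissue, 1 point per gene, with bars at the medians. In liver both sets lie mostly below 0, with medians of -0.175 and -0.19.

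Cacna1a, the P/Q-type calcium pore of nerve, was higher at time 2 in heart (0.52, SE 0.062, adjusted p = 5.61e-05), spleen (0.45) and lung (0.53). In hearts it read 8.23, 8.225 and 7.97 in A/J and 8.26, 8.065 and 8.02 in C57BL/6J at time 2, against 7.63, 7.57 and 7.52 in A/J and 7.75, 7.58 and 7.62 in C57BL/6J at time 1, with no overlap. The brighter probe set of Cacna1e, the R-type pore, was higher at time 2 in heart (0.49), lung (0.38) and spleen (0.29). The second set of Cacna1e gave 0.0087 in heart (adjusted p = 0.924), -0.079 in lung (adjusted p = 0.452) and -0.031 in spleen (adjusted p = 0.791), none of them called. Both genes were near background. Among those lower at time 2, Kcnk3 fell by 0.66 in liver (SE 0.08, adjusted p = 3.32e-05) and by 0.44 in spleen, and the silent subunit gene Kcns2 fell by 0.48 in liver and by 0.43 in spleen. Kcnk3 in livers lay between 7.75 and 8.04 at time 2 and between 8.32 and 8.77 at time 1. In heart the Kcnk3 difference was 0.29 (SE 0.12) and did not pass (adjusted p = 0.0779). Kcna3, Kcne1l and Kcnk1 were lower at time 2 in all 4 tissues, Kcne1l (a KCNE subunit) by 0.26 in heart, 0.26 in liver, 0.25 in spleen and 0.30 in lung. The share of all probe sets lower in all 4 tissues was not computed, so this is not a trait shown to be particular to channel genes. In spleen the calls numbered 20 with all arrays and 0 without the 5 spleens with pancreas markers (13 at an unadjusted p below 0.05), where Cacna1a stood at 0.42 and Kcnk3 at -0.40.

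Of the genes enriched in heart, Cacna2d1 was higher at time 2 in heart by 0.41 (SE 0.088, adjusted p = 0.003) and Kcnd2 was lower by 0.26 (the fit gives -0.26, adjusted p = 0.0371). The second probe set of Kcnd2 gave -0.013 and was not called (adjusted p = 0.911). Cacna2d1 read 9.14, 9.24 and 9.05 in A/J and 9.25, 9.12 and 9.13 in C57BL/6J at time 2, against 8.45, 9.03 and 8.51 in A/J and 8.71, 8.96 and 8.80 in C57BL/6J at time 1. The 2 lowest hearts are those with high Gapdh 3′ signal. Without them the difference was 0.27 (SE 0.071, adjusted p = 0.0175). Kcnj11 had the same pair of low hearts, with 10.496 and 10.398, and its difference of 0.31 (adjusted p = 0.0396) stood at 0.17 without them (adjusted p = 0.27). Without these hearts 14 channel genes differed by time in heart, 10 higher and 4 lower. Cacna1c was not called by time in any tissue, with -0.036 in heart, 0.023 in liver, 0.14 in spleen and 0.15 in lung. In lung the brighter Kcnj15 probe set was lower at time 2 (-0.45, SE 0.15, adjusted p = 0.0328), while the dimmer set gave 0.39 (SE 0.234, adjusted p = 0.218), the opposite direction, and did not pass.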

How the data were processed

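RNA of heart, liver, spleen and lung from A/J and C57BL/6J mice was measured on 48 Affymetrix MG-U74Av2 arrays, 3 for each of 16 groups. The values are log2 intensities as deposited by the authors, and their summary and scaling method was not given in the sources. Array medians lay between 8.865 and 9.016, and no 2 arrays were identical. Precision is limited by the number of arrays.

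Probe sets were named through the platform annotation: 10833 had 1 gene symbol, 396 had several and 1193 had none listed, and none was named from a probe set with several. After 66 control probe sets were left out, 12422 were tested with limma 3.58.1 in R 4.3.3, with Benjamini-Hochberg adjustment over all of them and a limit of 0.05. Tissues were compared over all 48 arrays with 16 group means. Strain (time additive) and time (strain additive) were compared in the 12 arrays of each tissue, strain by time in the same arrays, and strain by tissue with an F test over all arrays. The limma code was tested on simulated data.

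The members and gene lists were chosen with earlier results of these data known. Genes named with values are those enriched in a tissue, the textbook cardiac and lymphocyte channels, those called for strain, strain by tissue or strain by time, and up to 4 per tissue and direction called for time. Partner genes and markers come from lists. Any other gene was named after its values were seen.

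Alternatives were quantile normalization, a filter on the dimmest 25% of probe sets, the mean over a gene's probe sets, a fit over all 48 arrays, each time alone, the replicate number as a block, leaving out each array, leaving out arrays in doubt and centring on the off-tissue genes.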

Additional observations from a re-analysis of the deposited data

Results flagged for a closer look

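In 5 channel genes the A/J minus C57BL/6J difference changed between tissues (limma F test over 48 arrays, adjusted over all probe sets), where 18.5% of all probe sets did. For Cacna1c it was 0.6354 in heart, 0.1063 in liver, 0.1098 in spleen and -0.05632 in lung. For Kcnd2 it was 0.5153 in heart, -0.01378 in liver, 0.02423 in spleen and -0.04338 in lung. For Kcna5 it was -0.4033 in heart, 0.1068 in liver, 0.01323 in spleen and -0.05317 in lung. In these 3 genes heart departed from the other tissues, where the genes lay lower. For Kcnh1 it was 0.005672 in heart, 0.009815 in liver, -0.2238 in spleen and -0.2086 in lung. For Kcnj8 it was 0.01847 in heart, 0.09121 in liver, -0.2197 in spleen and -0.1192 in lung.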

How the results depend on the processing

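Of 99 counts recomputed under an alternative, 80 stayed within 1.5 times of the reported count, of 105 values of single genes 90 kept their call, and 0 reversed, leaving out single arrays aside. The 5 channel genes enriched in heart became 3 with the filter on dim probe sets (which takes Kcna5 and Kcnd2 out of the test), 3 with the mean over probe sets and 3 with centring on the off-tissue genes, a setting chosen after seeing the data. Centring also gave 13 channel genes higher in heart, 5 that differ by time in liver and 7 in spleen. Strain in heart gave 1 gene at time 1 alone. Strain in liver gave 0 with the replicate block (3 at an unadjusted p below 0.05), 2 at time 2 alone and 0 at time 1 alone (1 unadjusted). Strain in spleen gave 2 with quantile normalization, 4 in the fit over 48 arrays and 0 without the 5 spleens with pancreas markers (2 unadjusted). Strain in lung gave 0 at time 2 alone (10 unadjusted) and 0 at time 1 alone (1 unadjusted). Strain by tissue gave 11 at time 2 alone, and strain by time in liver gave 1 with the mean over probe sets. Time in heart gave 14 without the 2 A/J hearts, and time in spleen 0 without the 5 spleens (13 unadjusted). The causes were not tested. Apart from heart enrichment at time 2 alone and heart higher with centring, the share of all probe sets called was not computed under these alternatives. The counts thus cannot be set against the whole array. Settings that leave out arrays also test fewer samples, and that part of a lower count was not separated. Leaving out single arrays gave 4 to 5 genes enriched in heart, 20 to 22 higher in heart, 3 enriched in other tissues in every case, and 4 to 8 for strain by tissue. For strain it gave 3 to 4 in heart and 0 to 1 in liver, spleen and lung. For time it gave 16 to 24 in heart, 26 to 35 in liver, 12 to 22 in spleen and 11 to 24 in lung, and for strain by time 0 to 2 in liver and 0 to 1 in heart, spleen and lung. Replicate numbers showed no steady pairing. Deviations of same-numbered samples of the strains correlated over 0.1 in 7 of 24 pairs (-0.577 to 0.363), and those of heart and another tissue in 4 of 36 (-0.178 to 0.14). Strain pairs were all positive in heart at time 1 and in spleen and lung at time 2. They were all negative in heart at time 2 and in liver and spleen at time 1. With 3 samples a group, these values cannot exclude a pairing. With the replicate block time gave 21 genes in heart, 28 in liver, 17 in spleen and 18 in lung, strain gave 3 in heart and strain by tissue 5. Signals near background limit what differences of dim genes can show.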
